A study of Homo sapiens with 5 samples.

Results

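BCL2 and KDSR are neighbouring genes on human chromosome 18, and this account describes the chromatin immunoprecipitation (ChIP-seq) peaks that lie on and around them. The members are all peaks of 6 deposited lists that share at least 1 bp with chr18:60780000-61045000 on build hg19, a window of 265001 bp. In all, 962 peaks of 1150695 qualified. They comprised 7 of 13499 antibody 1 peaks, 21 of 465837 antibody 2 peaks and 190 of 50161 RNA polymerase II peaks called against IgG, and 276 of 54038, 358 of 486796 and 110 of 80364 peaks of the same libraries called against input. BCL2 (chr18:60790579-60986613) and KDSR (chr18:60994959-61034498) both lie on the minus strand, so that each start site is the higher coordinate and KDSR lies upstream of BCL2 with 8345 bp between them.

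The chromatin came from untreated U2932 cells, an established human lymphoma line, which all libraries share. Non-commercial rabbit polyclonal antibodies against PRDM11 (antibody 1 and antibody 2) and an RNA polymerase II antibody gave 1 ChIP library each, with 1 library of rabbit IgG and 1 of input to call peaks against. Without replicates no value has a replicate error and no test between conditions was possible. The lists hold positions only, so the depth behind a peak is unknown, and a wide peak is not the same as a high one. The window was chosen by the widths and positions of these peaks, so both are given as a description with no test.

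BCL2 encodes a protein of the outer mitochondrial membrane that holds back apoptosis, and it is best known from B cell lymphomas, where translocation or gain of 18q21 raises its level. U2932 is itself known for a gain of 18q21, and copy number was not measured in the files used here. KDSR encodes 3-ketodihydrosphingosine reductase, an enzyme of an early step of sphingolipid synthesis, and was first named FVT1 after a translocation in follicular lymphoma. PRDM11 belongs to the PR domain family of chromatin regulators. RNA polymerase II is typically found at highest density near the start of a transcribed gene, at lower density along its body and for some distance past its annotated end.

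The promoter sequences are shown as background to the comparison of promoters with gene bodies, which itself used the hg19 start sites. Both are the 250 bases before the start site in RefSeq's GRCh38.p14 annotation, read 5′ to 3′ on the minus strand, at chr18:63319770-63320019 for BCL2 and chr18:63367207-63367456 for KDSR. Capitals mark the GC box GGGCGG, searched on both strands (its reverse complement is CCGCCC), with no motif overlapping another.
BCL2: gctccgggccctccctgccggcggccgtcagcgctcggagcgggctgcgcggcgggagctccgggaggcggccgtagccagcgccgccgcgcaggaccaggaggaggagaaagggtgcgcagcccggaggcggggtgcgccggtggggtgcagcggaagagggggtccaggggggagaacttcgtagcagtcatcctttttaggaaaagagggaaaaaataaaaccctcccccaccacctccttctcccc
KDSR: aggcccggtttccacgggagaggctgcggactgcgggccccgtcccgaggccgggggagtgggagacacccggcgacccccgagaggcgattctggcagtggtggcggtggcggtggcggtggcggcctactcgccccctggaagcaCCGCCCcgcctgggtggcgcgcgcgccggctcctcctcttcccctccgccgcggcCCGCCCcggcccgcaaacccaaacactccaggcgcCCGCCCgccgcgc

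The BCL2 stretch held 0 GC boxes and 24 CpG dinucleotides at 70% G and C, and the KDSR stretch held 3 GC boxes and 34 CpG dinucleotides at 78.4%. Among 35116 RefSeq promoters of the same length, 42.6% held the GC box, the median was 11 CpG dinucleotides, and fewer CpG dinucleotides were counted in 76.3% of promoters than in BCL2 and in 93.2% than in KDSR. Neither stretch held CCAAT (in 32.0% of promoters) or TATAAA (in 10.7%), both searched on either strand. A match describes letters only. RefSeq's GRCh38.p14 genes are 196745 bp (BCL2) and 39481 bp (KDSR) long, against 196035 bp and 39540 bp between the hg19 ends used for the peaks. The distance between the start sites of the genes also differs between these sources. The printed bases may therefore not adjoin the start sites from which peak distances were measured, and the letters were not placed on the peaks.

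At the KDSR start site, peaks of all 3 libraries called against IgG coincided. The antibody 1 peak at chr18:61033139-61035274 was 2136 bp wide and reached from 776 bp upstream to 1359 bp downstream of the start site. The antibody 2 peak at chr18:61033303-61035278 was 1976 bp wide and reached from 780 bp upstream to 1195 bp downstream. Each was the widest peak of its whole list, and their upstream edges differed by 4 bp. RNA polymerase II had 3 peaks there: 1 of 894 bp across the start site (chr18:61034105-61034998, from 500 bp upstream to 393 bp downstream), 1 of 386 bp at 575 to 960 bp downstream and 1 of 155 bp at 634 to 788 bp upstream.

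The BCL2 start site looked different. The widest RNA polymerase II peak of the window, at chr18:60978380-60987272, was 8893 bp wide and ran from 659 bp upstream to 8233 bp into the gene. It ranked sixth by width in its list. An antibody 1 peak of 484 bp (chr18:60986689-60987172), which ranked 1546 of 13499, lay inside it at 76 to 559 bp upstream of the start site. No antibody 2 peak overlapped that peak in the lists called against IgG: antibody 2 had a 151 bp peak at 448 to 598 bp downstream and a 225 bp peak at 974 to 1198 bp downstream (chr18:60985415-60985639). The 225 bp peak contained a 144 bp antibody 1 peak at 1051 to 1194 bp downstream.

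**Figure D1:**
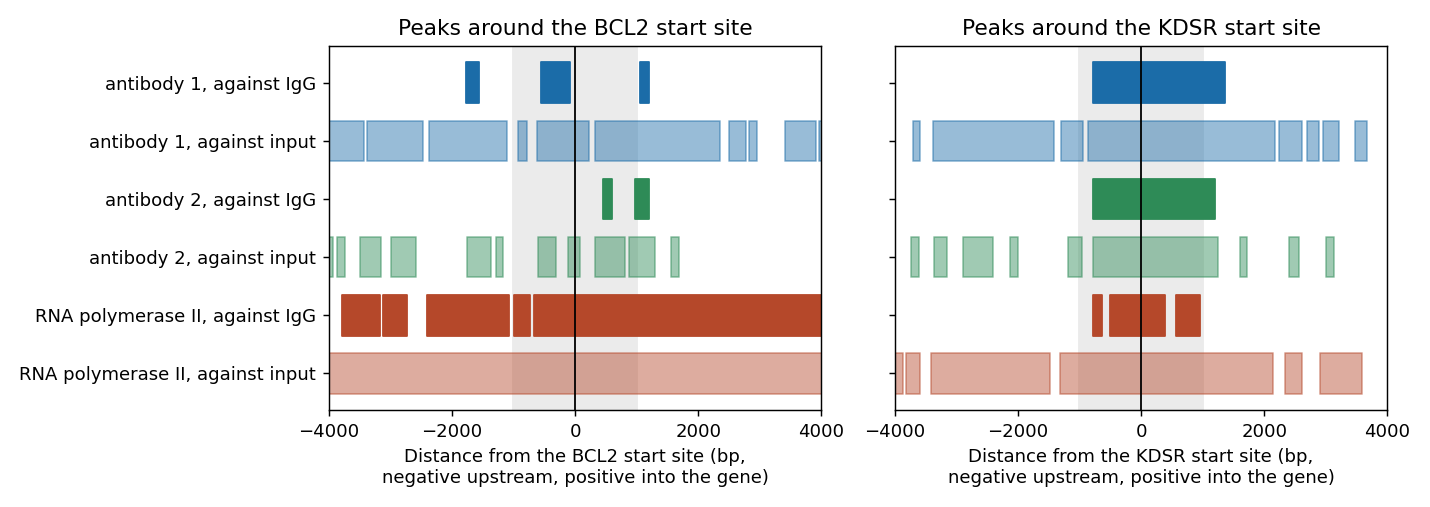
Peaks within 4000 bp of the BCL2 and KDSR start sites, 1 row per list; the x axis is the distance from the start site in bp and the grey band is the promoter window of 1000 bp on either side. At KDSR the IgG-list peaks of antibody 1 (2136 bp) and antibody 2 (1976 bp) span the start site, whereas at BCL2 a 484 bp antibody 1 peak lies upstream of it and an 8893 bp RNA polymerase II peak spans it.

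For a comparison of promoters with gene bodies, a promoter was taken as the 2001 bp centred on the start site, and a body as the rest of the gene. Called against IgG, antibody 1 peaks covered 24.2% of the BCL2 promoter and 0.316% of the BCL2 body, and 88.8% of the KDSR promoter and 0.932% of the KDSR body. The KDSR body held 0 antibody 1 peak midpoints, and its share came from the promoter peak alone, which runs past the promoter window, so that it depends on the window's width (2.20% with promoters of 500 bp on either side and 0% with 2 kb). At BCL2 the promoter share was 76.5 times that of the body. Across the genome, 0.853% of stretches of 2001 bp held antibody 1 peak bases; the window was chosen by these positions, so nothing is read from that share.

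Antibody 2 peaks called against IgG covered 8.90% of the BCL2 promoter and 1.05% of the BCL2 body, and 89.0% of the KDSR promoter and 1.87% of the KDSR body. These promoter shares were 8.49 and 47.7 times those of the bodies. Both ratios depend on the settings. The BCL2 promoter and body shares were 5.29% and 1.11% with promoters of 500 bp on either side, and 1.35% and 0.367% with peaks of 200 bp or more. Part of the KDSR body share came from the promoter peak, which runs past the promoter window. Of 2001 bp stretches over the genome, 27.2% held antibody 2 peak bases, and nothing is read from that share either. The 1976 bp KDSR peak was the 1 peak of 21 in the window that was 500 bp or wider, a width that 0.148% of antibody 2 peaks reached. For antibody 1 the same peak was the 1 of 7, against 10.7% of its list.

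RNA polymerase II, called against IgG, covered both promoters but separated the bodies. It covered 95.8% of the BCL2 promoter and 42.0% of the BCL2 body, a ratio of 2.28. For KDSR the shares were 71.7% of the promoter and 1.93% of the body, a ratio of 37.2. Per base, the BCL2 body was therefore covered 21.8 times as much as the KDSR body. Peak bases of RNA polymerase II stood in 2.56% of 2001 bp stretches of the genome.

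**Figure D2:**
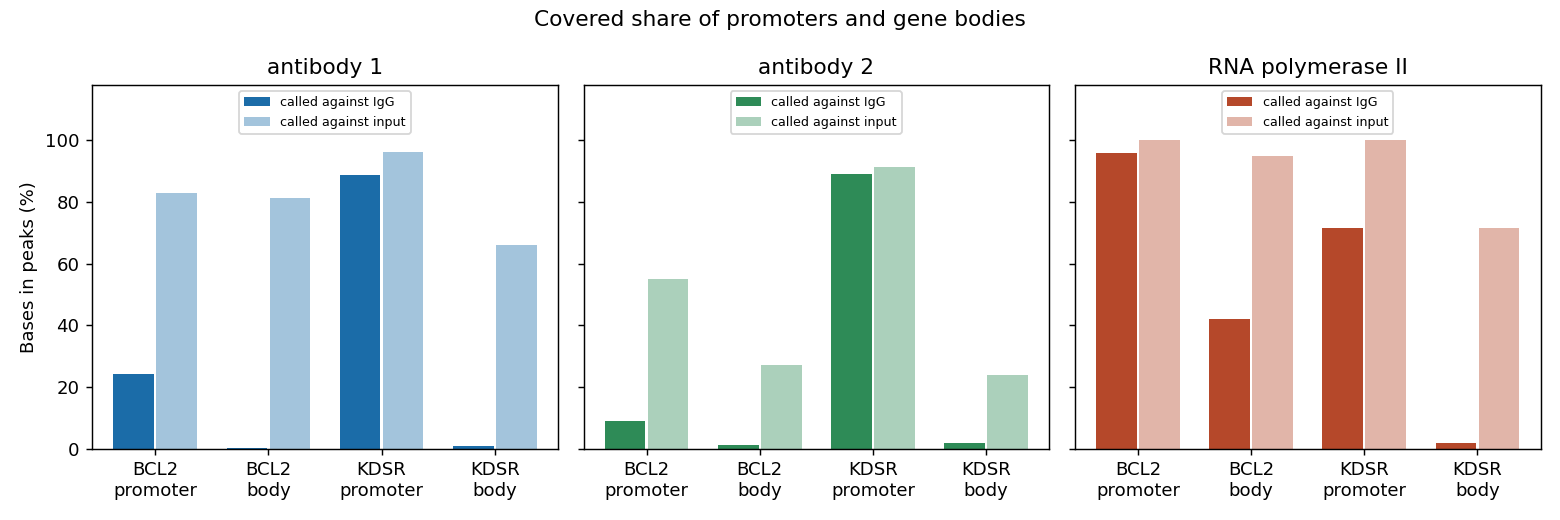
Share of bases in peaks (y axis, percent) for the promoter (2001 bp) and body of BCL2 and KDSR, 1 panel per library, with lists called against IgG in full colour and against input in pale colour. Called against IgG, RNA polymerase II covers 42.0% of the BCL2 body and 1.93% of the KDSR body, while antibody 1 covers 0.316% and 0.932%; called against input all bodies are covered far more.

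Along the BCL2 body, RNA polymerase II peaks were many and uneven. The 164 peaks with their midpoint in the body had a median width of 274.5 bp, and 35 of them were 500 bp or wider. Over the whole window 44 of 190 peaks (23.2%) were that wide, against 18.9% of the list. The 10 kb after the start site were 95.9% covered. Coverage was lower farther in, with 49.1% at 10 to 20 kb and 19.5% at 50 to 60 kb, and higher again at 100 to 110 kb (72.9%) and 160 to 170 kb (63.1%). The lowest share in the first 190 kb was 5.14%, at 140 to 150 kb, and the median of its 19 stretches of 10 kb was 44.2%. Of these, 4 were covered by at least 50%, against 0.0896% of 10-kb stretches over the genome.

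Further wide RNA polymerase II peaks lay at several places in the gene. The first, at chr18:60872948-60877650, was 4703 bp wide and ranked 30 in its list. A pair at chr18:60822184-60826689 (4506 bp, rank 34) and chr18:60826737-60829429 (2693 bp, rank 123) lay about 160 kb into the gene and were 47 bp apart. Others among the 10 widest were 2256 bp (chr18:60804843-60807098), 1984 bp (chr18:60951428-60953411), 1707 bp (chr18:60880062-60881768), 1618 bp (chr18:60808784-60810401) and 1570 bp (chr18:60864059-60865628). The last of the 10, of 1509 bp at chr18:60783399-60784907, lay beyond the end of the gene.

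RNA polymerase II peaks did not stop at the annotated BCL2 end. The 10579 bp of the window beyond it were 65.2% covered, with 13 peaks, and the farthest peak ended 10600 bp past the gene. No further peak followed for 37404 bp. Upstream of the BCL2 promoter, 35.2% of the space between the genes was covered, and the widest of the 4 peaks there measured 1325 bp, from 1075 to 2399 bp upstream of the start site. In the KDSR body, by contrast, 4 peaks of 141 to 234 bp all lay in the part nearest the gene's end, and 26803 bp next to the promoter window held none.

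**Figure D3:**
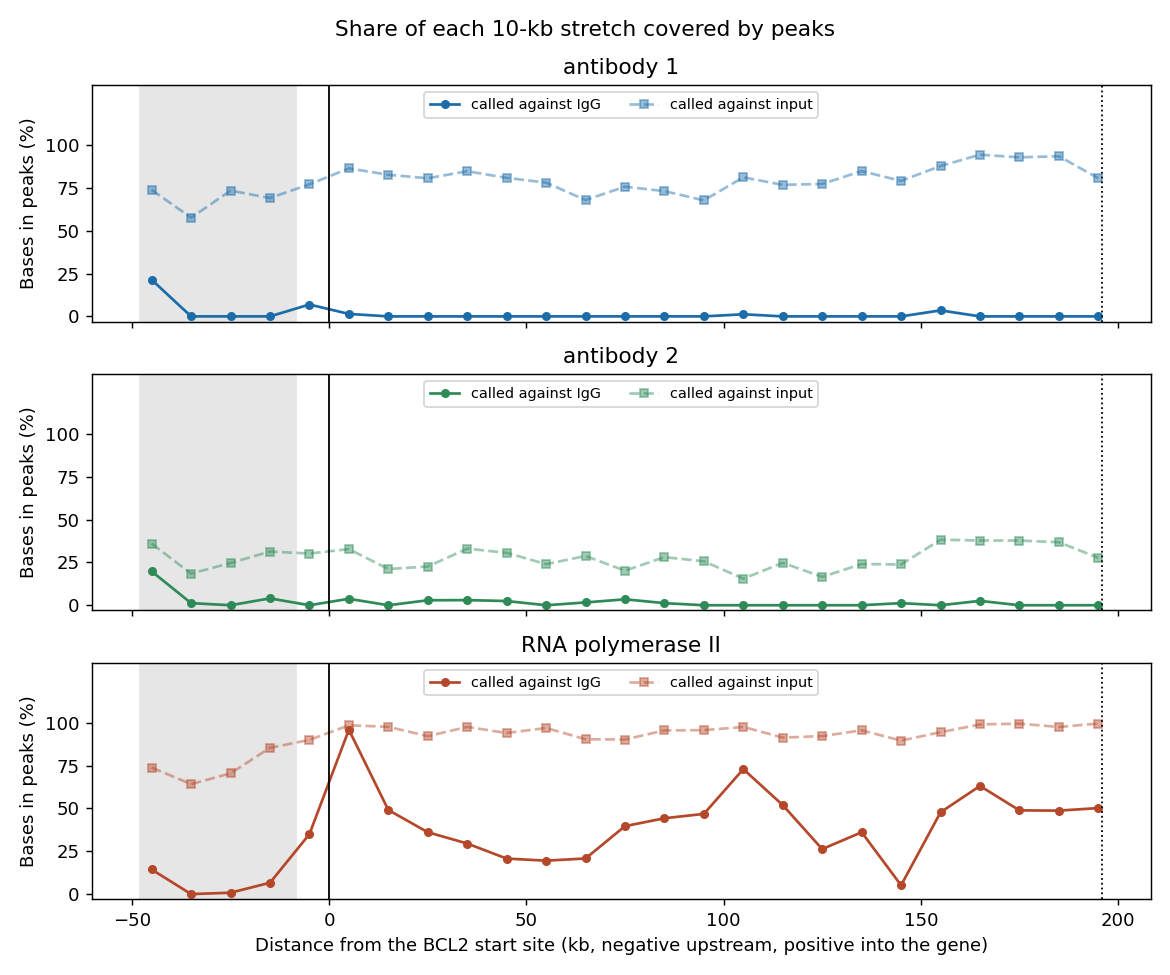
Share of each 10-kb stretch covered by peaks (y axis, percent) against the distance from the BCL2 start site (x axis, kb), with lists called against IgG as solid and against input as dashed lines; the solid vertical line is the BCL2 start site, the dotted one its end, and the grey band KDSR. RNA polymerase II called against IgG covers 95.9% of the first 10 kb of BCL2 and between 5.14% and 72.9% of later stretches up to 190 kb.

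Antibody 1 had few peaks inside BCL2. Besides the 144 bp peak near the start site, there were 3: 217 bp at chr18:60826959-60827175, 133 bp at chr18:60827476-60827608 and 123 bp, the shortest width of its list, at chr18:60878997-60879119. The first 2 lie in the 2693 bp RNA polymerase II peak named above, 159005 to 159654 bp from the start site. Another antibody 1 peak of 209 bp (chr18:60988176-60988384) lay 1563 to 1771 bp upstream of the BCL2 start site. All 7 antibody 1 peaks of the window overlapped an RNA polymerase II peak (exact 95% binomial interval 59.0% to 100%, counting error only), against 55.2% of the whole list, in a window of which RNA polymerase II covered 36.1%. An antibody 2 peak was overlapped by 2 of 7 (28.6%, 3.67% to 71.0%), beside 47.2% of the list. These shares describe positions that chose the window and are no test.

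Antibody 2 peaks inside the genes were short. After the KDSR peak, the widest were 263 bp (chr18:60913754-60914016), 255 bp (chr18:60823966-60824220), the 225 bp peak near the BCL2 start and 194 bp (chr18:61043489-61043682, upstream of KDSR). Of the 21 peaks, 10 (47.6%) had the list's shortest width of 123 bp, as had 78.4% of the list. With 79.2 peaks per Mb, antibody 2 was sparser in the window than in its list as a whole (155.2 per Mb), unlike antibody 1 (26.4 against 4.50 per Mb) and RNA polymerase II (717.0 against 16.7 per Mb). Of the 21, 11 (52.4%, 29.8% to 74.3%) overlapped RNA polymerase II, against 3.2% of the list, again in a window of which RNA polymerase II covered 36.1%. All 4 in the KDSR body lay outside RNA polymerase II peaks called against IgG. Those peaks covered 1.93% of that body, so nothing is read from this.

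The lists called against input gave another picture of the same libraries. Antibody 1 covered 1.30% of the window when called against IgG and 78.8% when called against input. For antibody 2 the shares were 1.91% against IgG and 27.9% against input, and for RNA polymerase II 36.1% against IgG and 91.3% against input. RNA polymerase II had 190 peaks of a median 276 bp against IgG and 110 peaks of a median 1143 bp against input. Its input-list peaks of 14706 bp (chr18:60817128-60831833) and 13934 bp (chr18:60977275-60991208) were the 2 widest of that whole list, and both lay on BCL2, the second across its start site. Of the input-list peaks in the window, 144 of 276 for antibody 1 were 500 bp or wider (52.2%, list 12%), 14 of 358 for antibody 2 (3.91%, list 0.203%) and 79 of 110 for RNA polymerase II (71.8%, list 19.3%). All 25 of the 10-kb stretches were at least 50% covered by antibody 1 and by RNA polymerase II called against input, as were 0.249% and 0.358% of such stretches over the genome.

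**Figure D4:**
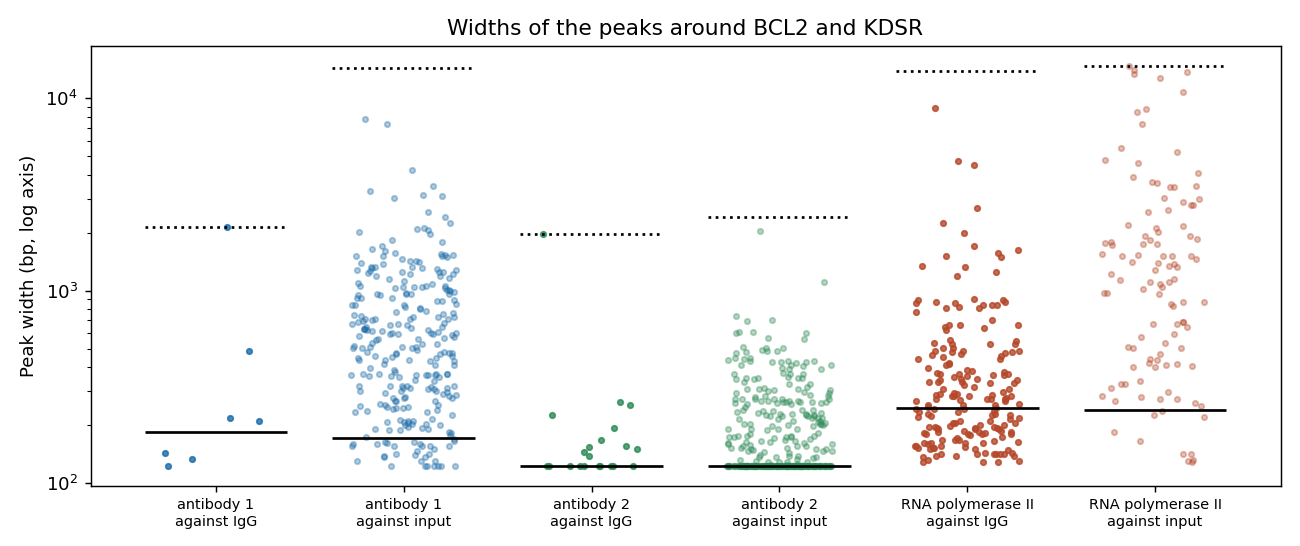
Width of every peak of the window (points; y axis in bp, log axis) in the 6 lists, with the median (solid line) and the widest peak (dotted line) of each whole list. The KDSR promoter peaks of antibody 1 (2136 bp) and antibody 2 (1976 bp) are at the dotted lines of their IgG lists, and the points of RNA polymerase II called against input lie mostly above their list's median of 239 bp.

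Every peak called against IgG in the window was found again against input: 7 of 7 for antibody 1 (list 81.3%), 21 of 21 for antibody 2 (list 93.2%) and 190 of 190 for RNA polymerase II (list 89.4%). With so much of the window covered in the input lists this recovery says little for antibody 1 and RNA polymerase II. For antibody 2 the exact interval was 83.9% to 100%, and nothing is read from its recovery either. In the other direction few peaks of the PRDM11 antibodies were found: 6 of 276 for antibody 1 (2.17%, 0.802% to 4.67%, list 19.5%) and 21 of 358 for antibody 2 (5.87%, 3.67% to 8.83%, list 89.1%). For RNA polymerase II 49 of 110 were found (44.5%, 35.1% to 54.3%, list 52.4%). For antibody 2 the share in the window was far below that of its list, most of which was found with either control. The intervals hold counting error only, and neighbouring peaks of a library are not replicates. The window was chosen by these peaks, so the shares are a description and no test.

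The contrast between promoters and bodies was much smaller against input. Antibody 1 covered 83.0% of the BCL2 promoter and 81.3% of the BCL2 body, a ratio of 1.02, and 96.3% of the KDSR promoter and 66.1% of its body, a ratio of 1.46. Antibody 2 kept the clearest contrast, with 55.0% of the BCL2 promoter and 27.3% of the body (ratio 2.02), and 91.4% of the KDSR promoter and 23.8% of the body (ratio 3.85). RNA polymerase II covered 100% of both promoters, 95.1% of the BCL2 body and 71.5% of the KDSR body. For the BCL2 body over the KDSR body, RNA polymerase II thus gave a ratio of 21.8 against IgG and of 1.33 against input.

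The KDSR promoter peak of both PRDM11 antibodies was present with either control. Antibody 2 had 1976 bp there against IgG and 2032 bp against input (chr18:61033251-61035282), where it was the second widest peak of the list. Antibody 1 had 2136 bp against IgG and 3044 bp against input (chr18:61032324-61035367), which ranked 151 in the input list. At BCL2, the 484 bp antibody 1 peak lay within an 847 bp peak called against input that reached from 626 bp upstream to 220 bp downstream of the start site. Against input, antibody 2 had peaks of 201 bp and 296 bp around the same place that had no counterpart against IgG.

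Between libraries, input-list peaks overlapped widely: 185 of 276 antibody 1 peaks lay on antibody 2 peaks (67.0%, list 34.8%), 273 of 276 on RNA polymerase II peaks (98.9%, list 44.9%), and 353 of 358 antibody 2 peaks on RNA polymerase II peaks (98.6%, list 6.29%). RNA polymerase II called against input covers 91.3% of the window. Coverage in the input lists was not even, and that of antibody 1 varied along the window with that of RNA polymerase II. Of the bases in RNA polymerase II peaks called against IgG, 95.1% were also in antibody 1 peaks called against input, while 69.6% of the other bases of the window were. For antibody 2 called against input the shares were 35.6% inside and 23.5% outside. Over 25 stretches of 10 kb, antibody 1 coverage against input and RNA polymerase II coverage against IgG had Pearson's r = 0.58 and Spearman's rho = 0.58. For antibody 2 against input the values were 0.18 and 0.19. The input lists also varied together: antibody 1 had 0.68 and 0.72 with RNA polymerase II against input, and 0.50 and 0.40 with antibody 2 against input. These stretches adjoin and come from single libraries, and all input lists were called against the same input library. The correlations therefore only describe this window.

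In the RNA polymerase II list called against IgG, high coverage was not limited to the BCL2 body (42.0%). The flank beyond the BCL2 end was 65.2% covered and the space between the genes 35.2%. The KDSR body (1.93% covered) and the flank upstream of KDSR (1.52%) were covered no more than the 1 Mb below the window, but more than the 1 Mb above it. Peaks of this list covered 36.1% of the window, 2.01% of the 1 Mb below it (on the side of the BCL2 end) and 0.249% of the 1 Mb above it. When the genome was divided into 11320 stretches as long as the window, 0 had a higher share, and the highest was 28.4%. Those stretches were laid end to end without regard to genes, whereas the window was placed on BCL2 with results known. For antibody 1 against IgG, 46 of the stretches had a share above the window's 1.30%, and for antibody 2 against IgG 6809 had a share above its 1.91%.

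Called against input, the surroundings were covered too. RNA polymerase II covered 91.3% of the window, 67.6% of the 1 Mb below it and 21.8% of the 1 Mb above it. Antibody 1 covered 78.8% of the window, 70.4% of the 1 Mb below and 27.3% of the 1 Mb above, and antibody 2 covered 27.9%, 22.8% and 8.40% of the same stretches. Over the whole span, these input lists covered 0.993% (RNA polymerase II), 0.520% (antibody 1) and 2.28% (antibody 2). Coverage in the input lists was thus raised on both sides of the window in all 3 libraries, and more so on the side of the BCL2 end.

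The edges of the window cut through few IgG-list peaks. The RNA polymerase II peak at chr18:60779979-60780172 spans the lower edge and is counted. Just outside, the nearest IgG-list peaks were 37444 bp (antibody 1, 237 bp wide), 32281 bp (antibody 2, 123 bp) and 37426 bp (RNA polymerase II, 219 bp) below the window, and 44485 bp (510 bp wide), 44606 bp (169 bp) and 5090 bp (380 bp) above it. Just inside, the outermost antibody 1 peaks were those of 217 bp and 2136 bp already described.

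The antibody 1 peaks most like the KDSR promoter peak were sought by the widths of the 3 libraries at the same place, called against IgG, as the Euclidean distance of log2(width + 1). KDSR had widths of 2136, 1976 and 894 bp for antibody 1, antibody 2 and RNA polymerase II, and the nearest region, at chr11:10878831-10880843, had 2013, 1665 and 1093 bp. The next were at chr15:76628843-76630787 (1945, 1491 and 1056 bp), chr18:25755173-25756798 (1626, 1331 and 1161 bp), chr12:90101050-90102688 (1639, 1261 and 756 bp) and chr20:3826794-3828289 (1496, 1226 and 819 bp). Distances ran from 0.39 to 0.87 on the log2 scale over the 3 libraries. The BCL2 promoter peak, with 484 bp of antibody 1, no antibody 2 peak and 8893 bp of RNA polymerase II, was of a different composition.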

How the data were processed

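Cross-linked U2932 chromatin was sonicated and precipitated, per the labels' protocols. Tools listed without role or order in the submitters' processing notes are MACS2 2.0.9, Bowtie 0.12.7 and SAMtools, with build hg19. For duplicate reads the handling is not given in the sources used. The authors deposited 6 peak lists, 1 per ChIP library and control, called at a q-value threshold of 0.1 per the file names. Each list has 3 columns (chromosome, start, end) and no score, so depth and precision are unknown. Starts, counted from 0, are printed counted from 1.

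The labelled antibody set each sample's group. The window and gene ends come from the selection rule; members, lists and tests were chosen with earlier results of these data known. Peaks were assigned to 7 segments by midpoint, and overlap meant at least 1 bp. Peaks named are all 7 of antibody 1, the 10 widest of RNA polymerase II, the 5 widest of antibody 2, those at promoters, and the 5 most like the KDSR peak; other peaks named were chosen after their values were seen. The span used for densities runs from the first to the last position any list reaches on each chromosome. Planned gene lists of apoptosis and ceramide synthesis were not run, since no annotation of build hg19 was used here. Both genes matched the RefSeq promoter table. Alternatives were other promoter windows, overlaps, controls and a minimum width of 200 bp. Python 3.11.15, NumPy 2.4.6, pandas 2.3.3, SciPy 1.17.1 and matplotlib 3.10.9 were used; overlaps and coverage were tested on simulated data and against bedtools 2.31.1.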

Additional observations from a re-analysis of the deposited data

How the results depend on the processing

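Of 111 alternatives, 73 left the value within 1.5 times (counts and covered shares) or within the exact interval (overlap shares), and 38 did not. This tally leaves out the input control for the covered shares of segments. There the RNA polymerase II ratio of BCL2 body to KDSR body was 21.8 against IgG and 1.33 against input. Where peaks are few the interval is wide, so a large shift can count as within it. The share of antibody 1 peaks on antibody 2 peaks went from 28.6% to 67.0% with both lists against input, inside its interval of 3.67% to 71.0%. No paired analysis was possible because each antibody has 1 library, which also means that no library could be left out. A stricter threshold could not be run because the lists carry no score, so peaks of 200 bp or more stood in for it.

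Called against input, the window held 276, 358 and 110 peaks of antibody 1, antibody 2 and RNA polymerase II. With promoters of 500 bp on either side, antibody 1 covered 42.5% of the BCL2 promoter and 2.20% of the KDSR body, antibody 2 covered 5.29% of the BCL2 promoter and 3.12% of the KDSR body, and RNA polymerase II covered 2.89% of the KDSR body; the BCL2 promoter then held 0 midpoints of antibody 2 and 0 of RNA polymerase II, and the KDSR promoter 1 of RNA polymerase II. With 2 kb on either side, the KDSR promoter was covered to 53.4%, 49.4% and 35.9% by antibody 1, antibody 2 and RNA polymerase II, antibody 1 covered 0% of the KDSR body, and the BCL2 promoter held 3, 2 and 2 midpoints. Counting any overlap gave 1 antibody 1 peak in the KDSR body and 2 peaks each of antibody 2 and RNA polymerase II at the BCL2 promoter. These shifts follow from the window's edges.

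With peaks of 200 bp or more, antibody 1 had 1 peak in the BCL2 body (0.111% covered). Antibody 2 had 0 midpoints at the BCL2 promoter (1.35%), 3 in the BCL2 body (0.367%) and 0 in the KDSR body (0.506%), and RNA polymerase II had 2 in the KDSR body (1.20%). Input-list peaks covered to 50% or more by IgG-list peaks were 0.725% of antibody 1, 2.51% of antibody 2 and 13.6% of RNA polymerase II, and with 200 bp or more in both lists 3.33% of antibody 2. With the second list called against input, 100% of antibody 1 peaks lay on antibody 2 and 100% of antibody 2 peaks on RNA polymerase II, and with both against input 98.6% of antibody 2 did; those lists cover more of the window. In all settings tried for promoters and widths, RNA polymerase II covered a larger share of the BCL2 body than of the KDSR body.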
